A study of Drosophila melanogaster with 2 samples.

Results

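The genes described here are 10 regulators of the Drosophila cell cycle, chosen by name: stg (string), Cdk1, CycA, CycB, CycD, CycE, E2f1, Rbf, dap (dacapo) and fzr (fizzy-related). All 10 matched a protein-coding gene of the annotation, which holds 13945 such genes on the 6 chromosome arms and chromosomes used. Binding at them was read from chromatin immunoprecipitation followed by sequencing (ChIP-seq). A bound region belonged to the gene whose protein-coding transcript start lay nearest to the region's summit, the base of highest signal. By that rule 5 of the 4781 bound regions of the data set belonged to these regulators, and they fell on 4 of the 10 genes.

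The samples are 2 biological replicates of 1 group: whole embryos collected 0 to 24 h after egg laying from the transgenic strain Awh-GFP, which expresses an eGFP fusion of Arrowhead (Awh), a transcription factor of the LIM-homeodomain class. Both replicates carry the transgene, and chromatin sheared to 200 to 800 bp was precipitated with an antibody against GFP, although another label field gives Awh as the antibody. The labels do not name the promoter that drives the fusion protein, no control library was analysed here, and whole embryos mix all cell types and many cell cycle states. With a single group there is no comparison between conditions, so all values are descriptions, set beside the same values over all genes or regions.

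Cyclins bind cyclin-dependent kinases and switch them on at set points of the cell cycle. String, a Cdc25-type phosphatase, removes the inhibitory phosphates from Cdk1 and so triggers entry into mitosis; in the embryo its transcription times the divisions that follow the early syncytial cycles, under regulatory sequence that extends far upstream of the gene. Cyclin E with its kinase drives S phase, and Dacapo holds Cyclin E back. Fizzy-related directs the anaphase-promoting complex to destroy mitotic cyclins so that cells can stop in G1.

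CycB, CycE, E2f1 and fzr had a bound region, and stg, Cdk1, CycA, CycD, Rbf and dap had none. The 4 of 10 genes are 40%, against 20.5% of all protein-coding genes, and with 10 genes no test was made of that difference. CycB had the strongest region, at a signal of 536. CycE was next at 172, above 79.8% of all regions, and the regions of E2f1 and fzr lay between 60.2 and 79.6. The median over the 5 regions was 79.6, against 105 over all 4781 regions (quartiles 81.4 and 155), so 2 of the 5 lay above the overall median. Signal is the value given to a peak in the authors' list made from both replicates, and its scaling is not recorded.

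The size of the stretch in which a summit can be assigned to a gene differed widely among the regulators. E2f1 held 35.9 kb nearest to its own starts, CycE 24.6 kb, dap 18.9 kb, fzr 11.1 kb and CycD 8.99 kb. The compact genes were Rbf with 5.16 kb, CycB with 4.70 kb, CycA with 3.67 kb, stg with 3.25 kb and Cdk1 with 2.20 kb, against a median of 4.33 kb over all genes. Across their 118 kb the regulators had 0.0422 regions per kb, against a genome density of 0.0357 per kb. The part of this length in the 4 of 10 was not tested.

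**Figure D1:**
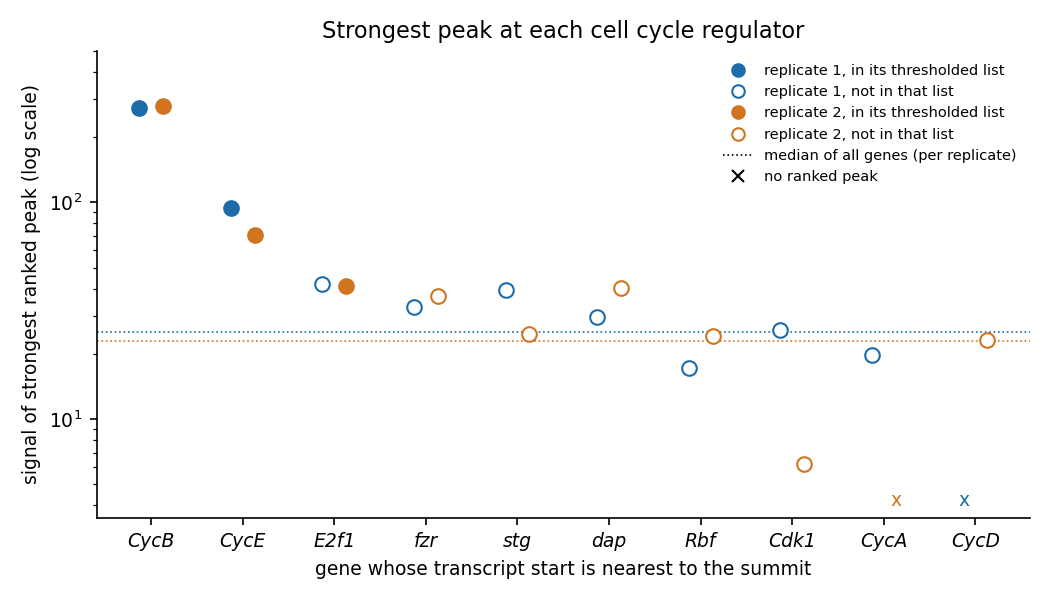
Signal (log scale) of the strongest ranked peak nearest to each regulator's starts in replicate 1 (blue) and replicate 2 (orange); filled points are in that replicate's own thresholded list, crosses mark no ranked peak, and dotted lines give the median over all genes, 25.2 in replicate 1 and 22.8 in replicate 2. CycB stands highest with 273 and 277, CycE follows with 94.5 and 70.6, and CycA and CycD each lack a ranked peak in 1 replicate.

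The phosphatase gene stg (FBgn0003525, chr3R:29251826-29255800, minus strand) had no bound region in the list made from both replicates, nor in the broader list or in either replicate's own list. Candidate peaks below the threshold were present: 4 ranked peaks were nearest to its starts. The strongest had a signal of 61.2 and lay in coding sequence, 1854 bp downstream of a start. In replicate 1 it had 39.5 and in replicate 2 it had 24.7, a log2 ratio of 0.68. The SD of that ratio was 0.49 over the listed regions, which passed the threshold that this peak did not. The score of this peak was 660, where every listed peak had at least 830. The score is the authors' whole number up to 1000. The next peak, with 49.6, sat 17 bp from a start, and there the replicates had 22.5 and 22.3. Its score was 392, lower than that of the less even peak in coding sequence. The score thus did not follow the likeness of the replicates' signals alone. The strongest stg peak, the one in coding sequence, exceeded that of 73.4% of genes. In the list of both replicates the peak at the start, with 49.6, was above the median of a gene's strongest peak (42.8). In each replicate the peak at the start was below that median (25.2 in replicate 1 and 22.8 in replicate 2).

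The nearest-start rule gives stg little of the sequence upstream of it, because the divergent gene CG45544 starts 685 bp away. Within 50 kb of stg lay 6 bound regions, all nearest to another gene. Of these, 2 were intergenic and upstream, 18.5 kb and 19.5 kb from the stg start, with signals of 72.6 and 74.0. The nearer one had 33.8 in replicate 1 and 38.0 in replicate 2, and the farther one had 30.6 and 42.3. Both ranked low in the list (4192 and 4103 of 4781), and neither was in a replicate's own thresholded list. The other 4 lay downstream of stg, assigned to eEF1gamma, a translation elongation factor gene (736 and 344), and to Cyt-c1L (134 and 123). None of the regulators' own 5 regions holds a spelling of the E2F site within 100 bp of its summit. The farther upstream region does, as do 3.30% of all regions, and it is shown for that reason. This region also holds GAGAG, as do 26.4% of all regions. Its plus-strand sequence on dm6, chr3R:29275190-29275390, carries in capitals the GAGA site GAGAG and the E2F site GCGGGAAA, the reverse complement of TTTCCCGC, which share 1 base and lie 96.0 and 90.5 bp before the summit in the middle of the window.
Upstream of stg: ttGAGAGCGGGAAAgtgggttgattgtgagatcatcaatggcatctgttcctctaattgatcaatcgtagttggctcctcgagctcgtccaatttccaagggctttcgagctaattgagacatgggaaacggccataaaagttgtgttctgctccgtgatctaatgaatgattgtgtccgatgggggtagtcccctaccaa

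**Figure D2:**
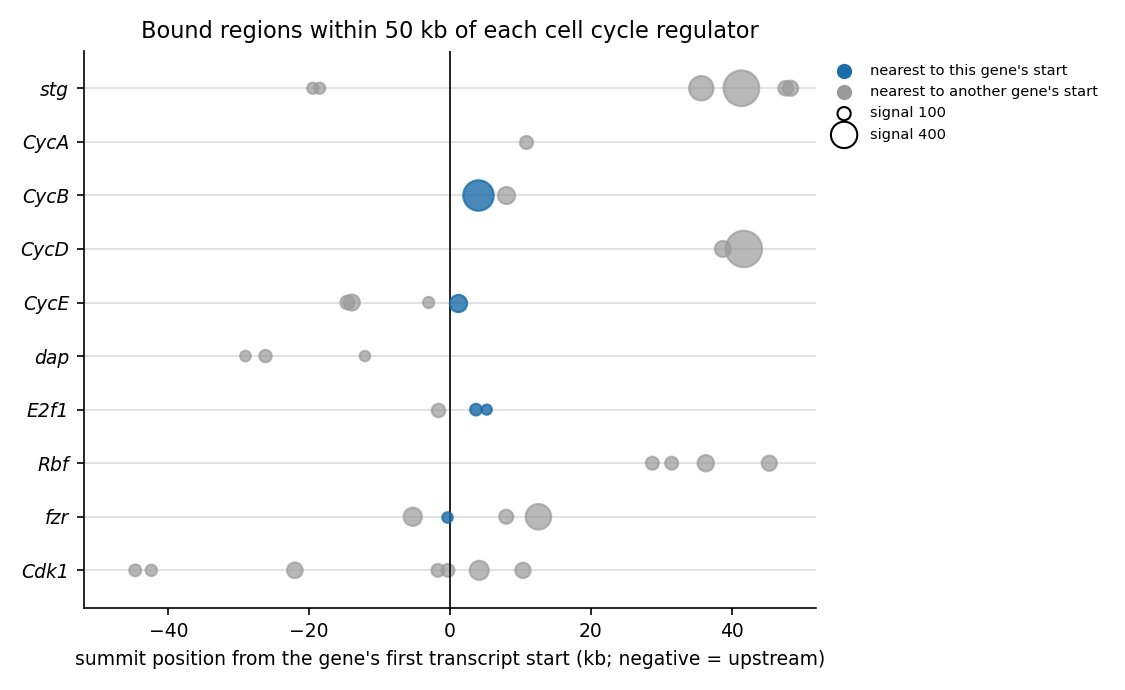
Bound regions within 50 kb of each regulator, placed by summit in kb from the gene's most upstream start (negative values upstream, the direction of transcription to the right); circle area grows with signal, blue marks the 5 regions nearest to the regulator itself and grey the 31 nearest to another gene. The counts per gene lie between 1 for CycA and 7 for Cdk1, and stg has 2 small regions upstream and 4 downstream.

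Cdk1 (FBgn0004106, chr2L:10384739-10386262, minus strand), the kinase that String activates, had no region nearest to its start. Its strongest ranked peak had a signal of 24.9, above that of 19.6% of genes. Replicate 1 had a ranked peak of 25.8 that overlapped it. The sole ranked peak of replicate 2 nearest to Cdk1, with 6.18, did not overlap it and lay 1736 bp downstream of the start. A bound region nevertheless lay 298 bp upstream of its start, in the short stretch that it shares with the divergent gene mRpS7, which encodes a mitochondrial ribosomal protein and starts 400 bp away. The summit was 102 bp from the mRpS7 start and was assigned to that gene. This region had a signal of 98.5, with 64.9 in replicate 1 and 41.8 in replicate 2, and was in the own list of replicate 1 but not in that of replicate 2. With a summit within 500 bp of a start as the criterion, Cdk1 joined CycE and fzr, which makes 3 of the 10 regulators, against 13.6% of all genes. The sequence is shown because it is the promoter-side binding nearest to Cdk1. It is read from the plus strand of dm6 at chr2L:10386460-10386660, and its capitals mark the homeodomain core TAATTA, 72.5 bp from the summit. TTTAAA, a control of the same base composition, lies closer, 15.5 bp from the summit and not in capitals. The GC content of this window is 27.4%.
Between Cdk1 and mRpS7: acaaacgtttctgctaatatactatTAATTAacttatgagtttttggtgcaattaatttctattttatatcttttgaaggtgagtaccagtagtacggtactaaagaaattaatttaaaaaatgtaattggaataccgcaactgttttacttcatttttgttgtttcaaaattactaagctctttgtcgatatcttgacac

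The mitotic cyclin genes, whose products partner Cdk1, differed widely: CycB had the strongest region of the set and CycA had none. CycB (FBgn0000405, chr2R:22803521-22806948, minus strand) had the strongest region, chr2R:22802875-22803069, with a signal of 536, rank 91 of 4781 and a score of 1000. Replicate 1 had 273 and replicate 2 had 277, a log2 ratio of -0.02, and the replicates' summits lay 9 bp apart. The region was in the own list of each replicate, and it was the most evenly measured of the 5. It was not a promoter region: its summit was 3334 bp downstream of the nearest CycB start and 552 bp past the 3' end of the gene. It fell in the 1340 bp between the ends of CycB and the convergent gene blw, which encodes the alpha subunit of the mitochondrial ATP synthase, 789 bp past the end of blw. The promoter of blw had a region of its own, with 171. At 195 bp the CycB region was also shorter than the 330 bp that 82.5% of all regions measured.

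CycA (FBgn0000404, chr3L:11826719-11833578, minus strand) had 1 ranked peak in the list of both replicates, with a signal of 22.8 in coding sequence, above that of 17.7% of genes. Replicate 1 had 19.8 and replicate 2 had no ranked peak. Within 50 kb the sole bound region was at the promoter of the ribosomal protein gene RpL10Ab, 10.8 kb away, with 98.3. CycD (FBgn0010315, chrX:15906822-15909676, minus strand), the cyclin that pairs with Cdk4 in growth and G1, had no ranked peak in the list of both replicates or in replicate 1, which holds for 11.4% and 10.6% of all genes. Replicate 2 had peaks of 23.1 and 22.2 there, near the median of 22.8 for the strongest peak of a gene in that replicate. Within 50 kb lay 2 bound regions, in an intron of CG16952 at 38.7 kb with 149 and at the promoter of the glycolytic gene Gapdh2 at 41.7 kb with 768.

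CycE (FBgn0010382, chr2L:15727581-15748150, minus strand), which drives S phase, had the second highest region, chr2L:15746884-15747213, with a signal of 172, rank 965 and a score of 1000. Replicate 1 had 94.5 and replicate 2 had 70.6, a log2 ratio of 0.42, within the SD of 0.49 over all regions, and each replicate's own list held it. The summit was 439 bp upstream of a CycE start and, as the gene has 3 starts, also inside an intron of the longer transcripts. A noncoding gene, lncRNA:CR44974, has an exon in the window around the summit. A weaker region, with 73.4, lay 3.04 kb upstream of the most upstream start, at the promoter of ND-B17. The CycE sequence is shown as the strongest of the regulators' promoter regions, from the plus strand of dm6 at chr2L:15746949-15747149, with the E-box CAGCTG in capitals 86.5 bp from the summit.
CycE promoter region: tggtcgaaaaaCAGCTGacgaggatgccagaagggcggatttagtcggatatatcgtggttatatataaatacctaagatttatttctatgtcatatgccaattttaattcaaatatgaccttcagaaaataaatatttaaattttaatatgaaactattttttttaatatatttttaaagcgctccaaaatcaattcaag

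E2f1 (FBgn0011766, chr3R:21620304-21660871, minus strand), the activating E2F that turns on S phase genes, had 2 regions, more than any other of the regulators, and both were intronic and weak. The first, chr3R:21657032-21657361, lay 3235 bp downstream of the nearest start, with a signal of 79.6 and rank 3710. It had 36.6 in replicate 1 and 41.1 in replicate 2, a log2 ratio of -0.17. Each replicate's own list had a region that overlapped it, but that of replicate 1 was a separate and weaker peak, with 21.1 and rank 2894 of 2895. The other, chr3R:21655501-21655830, was 4766 bp downstream, with a signal of 60.2 and rank 4682. It had 42.1 in replicate 1 and 30.8 in replicate 2, a log2 ratio of 0.45, and was in neither own list. The replicates thus ordered the 2 regions differently, with differences within the SD of 0.49. A further region with 106 lay 1.77 kb upstream of the most upstream E2f1 start, in an intron of the neighbouring gene Archease, to which it was assigned.

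The E2f1 sequences are given because they differ in what they hold near the summit. Both are from the plus strand of dm6, and the capitals in the stronger one mark TAATTA, 22.5 bp from its summit, the sole match to the homeodomain core within 100 bp of a summit among the 5 regions. The weaker one has no match to it in this window. Their coordinates are chr3R:21657097-21657297 and chr3R:21655566-21655766.
E2f1 intron, stronger region: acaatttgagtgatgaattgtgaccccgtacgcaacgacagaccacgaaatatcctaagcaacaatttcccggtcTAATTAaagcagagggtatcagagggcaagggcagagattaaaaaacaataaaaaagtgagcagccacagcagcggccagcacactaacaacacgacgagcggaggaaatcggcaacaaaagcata
E2f1 intron, weaker region: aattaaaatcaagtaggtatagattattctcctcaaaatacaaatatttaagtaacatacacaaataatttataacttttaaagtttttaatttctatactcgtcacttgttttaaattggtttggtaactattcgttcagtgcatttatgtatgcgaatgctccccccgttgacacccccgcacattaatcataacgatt

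Rbf (FBgn0015799, chrX:797090-801479, minus strand), the retinoblastoma-family protein that restrains E2F, had no region. Its strongest ranked peak had 38.2, in coding sequence 3592 bp from the start and above that of 40.6% of genes. The strongest peak of replicate 1 had 17.2 and that of replicate 2 had 24.2. The nearest bound region was 28.7 kb away, in an intron of fz3, with 98.1.

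The inhibitor gene dap (FBgn0010316, chr2R:9712321-9716256, plus strand), of the p21/p27 type in mammalian terms, had no region either, although 17 ranked peaks were nearest to it. The strongest, with 56.1, lay 592 bp upstream of the start with a score of 437, above that of 69.3% of genes. The strongest peak of replicate 1 had 29.6 and that of replicate 2 had 40.4, at different places, 7476 bp and 3280 bp downstream of the start. The nearest bound region, with 64.3, was 12.1 kb upstream and was assigned to CG30002.

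At fzr (FBgn0262699, chrX:4667290-4679537, minus strand) the region nearest to a start was weak and stronger regions were assigned to a neighbour. Region chrX:4679851-4680180 had its summit 479 bp upstream of a fzr start, in the 3' UTR of Pp2C1, whose annotated end overlaps it. It had a signal of 64.3, rank 4599, with 33.0 in replicate 1 and 36.8 in replicate 2, a log2 ratio of -0.16, and was in neither own list. An intron of fzr held another region with 114.9, which was closer to a start of CG3009. A further region, with 377, lay 293 bp past the 3' end of fzr and 297 bp upstream of the CG3009 start. It had 217 in replicate 1 and 150 in replicate 2.

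**Figure D3:**
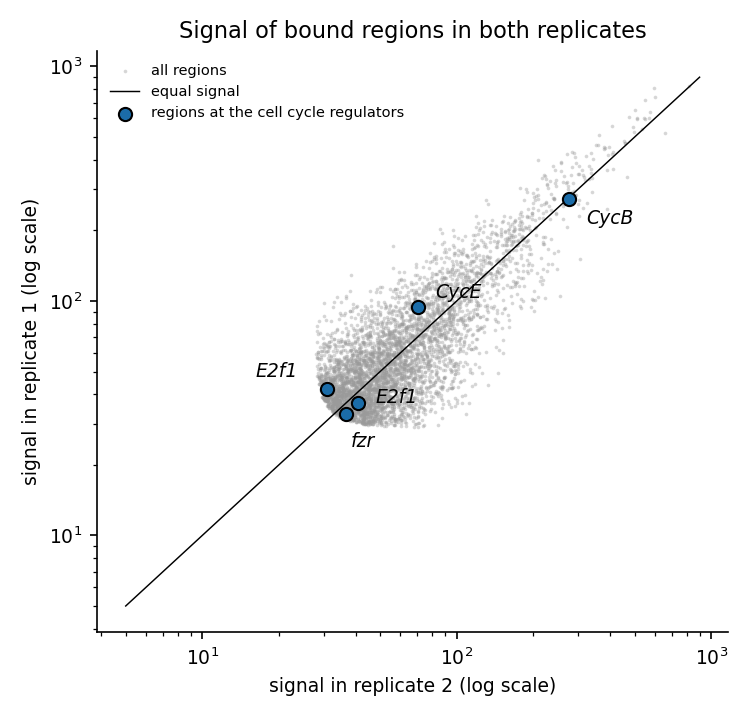
Signal of each bound region in replicate 2 (horizontal) and replicate 1 (vertical), both on log scales, for all regions with a value in each replicate (grey) and for the 5 regions of the regulators (blue); the line marks equal signal. CycB lies on the line with 273 and 277, and the E2f1 and fzr regions lie in the dense lower corner at 30.8 to 42.1.

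The replicates gave like signals at all 5 regions, but the list favours this, because it was thresholded by reproducibility between replicates. Like signals alone did not secure a listing: an E2f1 peak with 32.4 in replicate 1 and 32.3 in replicate 2 was not listed. The log2 ratios of the 5 regions lay between -0.17 and 0.45. Over 4741 regions of the same list the median was 0.02 and the SD 0.49, which stands for 1.41-fold. None of the 5 was outside 1 SD. The summits of replicates 1 and 2 lay 3 and 11 bp from the region's summit at CycE, counted along the plus strand. At the stronger E2f1 region they lay at -79 and -2 bp, at the weaker one at -20 and -150 bp, and at fzr at 112 and -42 bp. In both replicates' own lists were 3 of the 5 regions, against 43.3% of all regions, and in neither were 2 of the 5, against 26.8%. Taken alone, the list of replicate 1 held CycB, CycE and E2f1, which makes 3 of 10 regulators, against 14.7% of all genes. The list of replicate 2 held the same 3 genes, against 16.5%, with an extra E2f1 region of 32.9. The broader list of both replicates had the same 4 genes, against 22.7%, and at each of the 5 regions it had a region that overlapped.

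Signal alone did not decide which peaks were listed. Every listed peak had a score of at least 830, but 120 ranked peaks past that score were not in the list, of which 0 were nearest to a regulator. At or above 60.2, the lowest signal of a listed region at the regulators, 8 of their 119 ranked peaks were found and 5 were listed. The 3 others were a further E2f1 intronic peak with 70.5 (score 804), the stg peak with 61.2 (score 660) and another E2f1 peak with 61.1 (score 681). Over the genome 63.2% of 7414 peaks at or above that signal were listed. The stg peak was thus above the weaker listed E2f1 region in signal and below it in score, at 660 against 881.

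Binding around the regulators was near the genome's middle. The number of regions within 50 kb was 7 for Cdk1, 6 for stg, 4 each for CycE, Rbf and fzr, 3 each for dap and E2f1, 2 each for CycB and CycD and 1 for CycA. Their median was 3.5, against 4 over all genes (quartiles 2 and 6). Of the 36 regions, 31 were nearest to another gene. With a summit inside a gene or within 2 kb of it as the criterion, 5 of the 10 regulators counted as bound, against 29.8% of all genes. Those 5 were E2f1 and fzr with 3 regions each, Cdk1 with 2, and CycB and CycE with 1 each, and stg was still not among them.

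Short sequences within 100 bp of the summits were searched on both strands. The homeodomain core TAATTA was in 1 of the 5 regions, against 19.7% of all regions. AATATT, a palindrome of the same base composition that serves as a control for it, was in 4 of the 5, against 24.4%, and TTTAAA, another such control, was in 2, against 24.3%. The GC content was 27.4% at fzr, 27.9% at CycE, 29.9% and 45.8% at E2f1 and 34.8% at CycB, against a median of 38.8%. TAATTA was in the E2f1 region with 45.8%, and AATATT was in the 4 others. The part of base composition in the counts was not tested. AATATT and TTTAAA overlapped at CycE. The E2F site, searched in the 4 spellings TTTCCCGC, TTTGGCGC, TTTCGCGC and TTTGCCGC, was in none of the 5 regions, against 3.30% of all regions, and the DREF site TATCGATA was in none, against 1.72%. The GAGA site GAGAG was at fzr alone, against 26.4%, the E-box CAGCTG at CycE alone, against 8.76%, and ACAGTG at CycB alone, against 16.1%. A match is a description of the letters and not of a protein on them.

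Genes on the lists of other cell cycle genes were bound about as often as genes in general: 18 of 89, or 20.2%, against 20.5% of all protein-coding genes. These lists take in cyclins and cyclin-dependent kinases by family and not by a role in the cell cycle. Among other cyclins and cyclin-dependent kinases 4 of 17 had a region, with 343 at CycY, 169 at CycT, 154 at Cdk4, the partner of Cyclin D, and 128 at Cdk12. Among kinases and phosphatases of mitotic entry, the group to which stg belongs, 3 of 10 did: tws, a regulatory subunit of protein phosphatase 2A, with 231, trbl (tribbles), which brings about the loss of String protein, with 178, and aurB with 81.0. Further groups had 3 of 12 for the anaphase-promoting complex (Cdc16 with 236, Rca1 with 171 and fzy with 147), 4 of 18 for replication (chif with 545, Cdc7 with 103, RnrS with 97.7 and Mcm2 with 81.8) and 2 of 16 for checkpoints and cohesion (p53 with 151 and mad2 with 137). In the remaining groups 1 of 7 had a region for inhibitors and the SCF ubiquitin ligase (rux with 143) and 1 of 9 for the E2F and retinoblastoma group, where Dp, the dimer partner of E2f1, had 3 regions, the strongest with 174 at 193 bp from a start. Dp thus had a higher signal than E2f1 itself, and chif had a signal close to that of CycB.

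**Figure D4:**
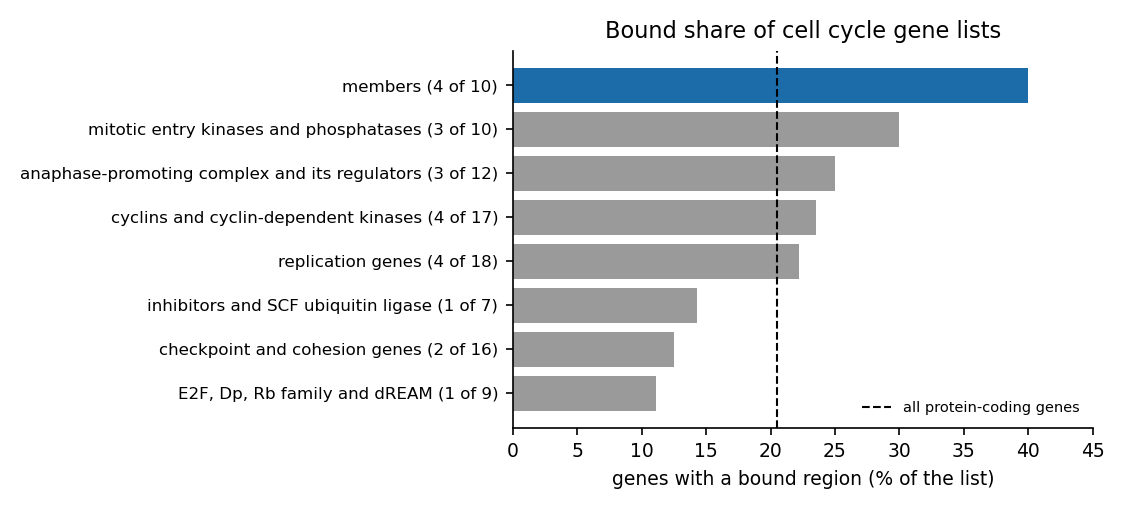
Share of genes with a bound region (% of each list, axis from 0) for the 10 regulators (blue) and for 7 lists of other cell cycle genes (grey), with the number bound of the number listed. Cyclins and cyclin-dependent kinases were listed by family. The dashed line is the 20.5% of all protein-coding genes. The regulators stand at 40% and the lists between 11.1% and 30%.

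By the number of regions and their summed signal, the genes most like E2f1, the regulator with the most regions, were blot, CG31275, CG33299, CG17122 and N, among 503 genes with 2 regions. E2f1 summed to 140, and these 5 genes summed to 140, 139, 141, 138 and 138.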

How the data were processed

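The deposited files are peak lists on dm6, per the labels: for each replicate and for both together a list of ranked peaks and lists thresholded by the irreproducible discovery rate. The signal in the deposited lists is the authors' value for a peak, and the score is the authors' whole number up to 1000. For the aligner, peak caller, control and scaling, names and settings are not given in sources used here. No list carries read totals, so the depth and the precision it gives are unknown.

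The conservative list held 5026 peaks, of which 5024 lay on 2L, 2R, 3L, 3R, 4 and X. Overlapping peaks were merged (4781 regions, with summit and signal of the strongest peak) and assigned to the nearest start of a protein-coding transcript in the Ensembl annotation BDGP6.54. Starts shared by genes counted for each of them (81 regions). Replicate signals are those of the strongest ranked peak that overlapped by at least 1 bp. The broader list held 5529 regions, the list of replicate 1 had 2895 and that of replicate 2 had 3560. Replicate numbers come from the labels. Sequences are from the RefSeq copy of the Release 6 genome, the assembly behind dm6. The scripts used Python 3.11.15, numpy 2.4.6 and pandas 2.3.3, with figures by matplotlib 3.10.9, and the assignment was tested on simulated positions.

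The regulators and the lists were chosen with earlier results of these data known. Named genes are all 10 regulators, up to 5 bound genes per list by signal, and the 5 genes most like the regulator with the most regions by summed signal. Genes named as neighbours were chosen after their values were seen. Of 90 listed symbols 89 matched, and lmg did not. Alternatives were the broader list, each replicate's list, a stricter signal, unmerged peaks, peak centres, all transcripts, other distances and other overlaps.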

Additional observations from a re-analysis of the deposited data

How the results depend on the processing

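No alternative gave stg a region. The count of regulators with a region was 4, and it was 4 with the broader list, unmerged peaks, peak centres or the starts of all transcripts, 5 with a summit in the gene or within 2 kb, and 2 with only regions at or above the median signal. On the list of 1 replicate alone it was 3 for either. The count of regions was 5; it was 10 in the gene or within 2 kb, 2 at or above the median signal, and 3 to 4 on the list of 1 replicate alone, the lower value without replicate 2. Regions within 500 bp of a start numbered 2, against 0 within 250 bp, 2 within 1000 bp and 1 on the list of either replicate alone. TAATTA was in 1 of the 5 regions within 100 bp of the summit and in 3 within 200 bp, a window that is wider by construction. A stricter signal or a shorter distance can likewise only lower a count or leave it unchanged. The rule of the gene or 2 kb also counts regions nearest to another gene. For the changes on the list of 1 replicate alone the cause was not tested. All 10 replicate signals were the same when the ranked peak with the nearest summit was taken. No paired analysis was possible because there is 1 group. Depth is unknown, so absence from a list is absence at these thresholds only.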
